A study of Mus musculus with 2 samples.

Results

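Genes for S100 proteins, annexins and galectins were followed in RNA-seq of polyadenylated RNA from mouse regulatory T cells, a CD4 T cell type that holds immune reactions in check. The set holds 10 listed genes: the S100 genes S100a4, S100a6, S100a10, S100a11 and S100a13, the annexin genes Anxa1, Anxa2 and Anxa6, and the galectin genes Lgals1 and Lgals3. They were matched by GENCODE M21 identifier, and all 10 were found among the 55536 annotated genes of the tables, with 36 annotated transcripts. The sample came from 1 adult male mouse aged 4 months of the strain labelled Foxp3CreERT2 x Rosa26YFP. This strain name combines a Cre recombinase fused to a modified oestrogen receptor at Foxp3, the gene that defines regulatory T cells, with a YFP reporter at Rosa26. The labels name no tamoxifen or other treatment and no sort, and describe primary cells derived from a bone marrow hematopoietic cell. Both libraries are technical replicates of that sample, so there is 1 group, no contrast between conditions, and an SD that covers technical variation only.

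Library 2 held 16153671 estimated counts on genes and library 1 held 15821875. All 6 genes listed as regulatory T cell markers were expressed, that is, at 1 TPM (a level scaled for transcript length and depth) or more in both libraries. They were Foxp3, Il2ra, Ctla4, Ikzf2, Cd4 and Cd3e, of which Cd4 and Cd3e are not limited to regulatory T cells. Foxp3 had 36.2 TPM in library 2 and 43.2 TPM in library 1. Most markers of other cells were low. Of 13 myeloid markers 3 were expressed, and the 13 summed to 11.8 TPM in library 2 and 10.1 TPM in library 1. The expressed ones were Tyrobp at 4.77 and 2.35 TPM, Cd68 at 2.23 and 3.72 TPM, and Fcer1g at 2.59 and 1.96 TPM. The granulocyte genes Mpo, Elane and Ly6g had 0 estimated counts in both libraries. In the smaller gene tables described below, Ly6g had 0 counts in library 2 and 1 count in library 1. None of 5 dendritic cell markers was expressed. Of 7 genes listed for stroma and endothelium only Epcam, an epithelial gene, was expressed, at 2.71 TPM in library 2 and 4.08 TPM in library 1. The sum of 5 B cell markers was 35.3 TPM in library 2 and 35.1 TPM in library 1, nearly all of it Cd79b at 33.3 and 33.2 TPM. The sum of 5 NK and CD8 T cell markers was 21.6 TPM in library 2 and 19.0 TPM in library 1, most of it Cd8b1 at 14.3 and 10.8 TPM. What part such cells had in the levels below was not tested, and in bulk RNA fewer cells of a type and less RNA per cell cannot be told apart.

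S100 proteins are small calcium-binding proteins of the EF-hand class that work mostly as pairs and change the behaviour of a partner protein when calcium rises. Annexins bind acidic membrane lipids in a calcium-dependent way, and several carry an S100 pair on their N-terminal end, as annexin A2 does with S100A10 and annexin A1 with S100A11. Galectins are lectins that bind beta-galactoside sugars on glycoproteins inside and outside the cell, and galectin-1 is known in T cells for binding surface glycoproteins and for a part in suppression by regulatory T cells.

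All 10 genes were expressed, and all 10 also passed 5 TPM in both libraries. Their median level was 211 TPM, against 13.5 TPM over the 13471 expressed genes and 18.5 TPM over the 10251 expressed protein-coding genes. The 10 genes were chosen with earlier results of these data known, so this comparison describes them and tests nothing. The levels spanned a wide range: S100a10 was highest at 625 ± 7.52 TPM and Lgals3 lowest at 11.6 ± 2.11 TPM (SD, n = 2), a ratio of 54.9 ± 10.7. The set took 0.158% of the estimated counts in library 2 (95% exact Clopper-Pearson interval 0.156 to 0.159) and 0.152% in library 1 (0.150 to 0.154). Intervals of this kind cover counting error only.

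S100a10 and S100a11 stood highest of the 10. S100a10 (ENSMUSG00000041959.14, mm10 chromosome 3, 93555080 to 93564643, plus strand), whose protein does not need calcium to bind annexin A2, had 630.4 TPM in library 2 and 619.8 TPM in library 1, from 5226 and 4899 estimated counts. It ranked 227th among expressed genes. S100a11 (ENSMUSG00000027907.4, chromosome 3, 93520488 to 93526287, plus strand), the partner of annexin A1, had 478 TPM in library 2 and 496 TPM in library 1, from 2882 and 2850 counts. S100a6, which encodes calcyclin (ENSMUSG00000001025.8, chromosome 3, 90612882 to 90624181, plus strand), had 268 TPM in library 2 and 258 TPM in library 1, from 1728 and 1620 counts. The gap between the libraries was small beside the level of each of these 3 genes.

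S100a13 and S100a4 were lower. S100a13, whose protein takes part in the secretion of proteins without a signal peptide (ENSMUSG00000042312.9, chromosome 3, 90514435 to 90524581, plus strand), had 165 TPM in library 2 and 152 TPM in library 1, from 1430 and 1255 counts. S100a4, whose protein binds non-muscle myosin heavy chain (ENSMUSG00000001020.8, chromosome 3, 90603771 to 90606045, plus strand), had 77.3 TPM in library 2 and 88.3 TPM in library 1, from 451 and 493 counts. S100a13 was the higher of this pair in both libraries.

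Among the annexin genes Anxa6 led. Its protein, annexin A6, carries a duplicated annexin core. Anxa6 (ENSMUSG00000018340.13, chromosome 11, 54979108 to 55033445, minus strand) had 288 TPM in library 2 and 279 TPM in library 1, from 9052 and 8347 counts, more counts than any other member. Anxa2 (ENSMUSG00000032231.14, chromosome 9, 69453620 to 69491795, plus strand), which links membranes to actin, had 71.2 TPM in library 2 and 79.1 TPM in library 1, from 1272 and 1337 counts. Anxa1 (ENSMUSG00000024659.15, chromosome 19, 20373428 to 20390944, minus strand), whose secreted protein acts on formyl peptide receptors, had 14.56 TPM in library 2 and 11.96 TPM in library 1, from 260 and 199 estimated counts. Anxa1 thus stood far below the annexin genes named before it.

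The galectin genes were far apart in level. Lgals1, the galectin-1 gene (ENSMUSG00000068220.6, chromosome 15, 78926725 to 78930465, plus strand), had 357 TPM in library 2 and 366 TPM in library 1, from 3008 and 2904 counts. Lgals3, the gene of galectin-3, which joins a lectin domain to a long flexible tail (ENSMUSG00000050335.17, chromosome 14, 47367751 to 47386160, plus strand), had 10.1 TPM in library 2 and 13.1 TPM in library 1, from 138 and 161 counts. The ratio of Lgals1 to Lgals3 was 35.4 in library 2 and 28.0 in library 1. With protein-coding transcripts alone the mean of Lgals1 was 132 TPM and that of Lgals3 11.6 TPM, a smaller gap.

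**Figure D1:**
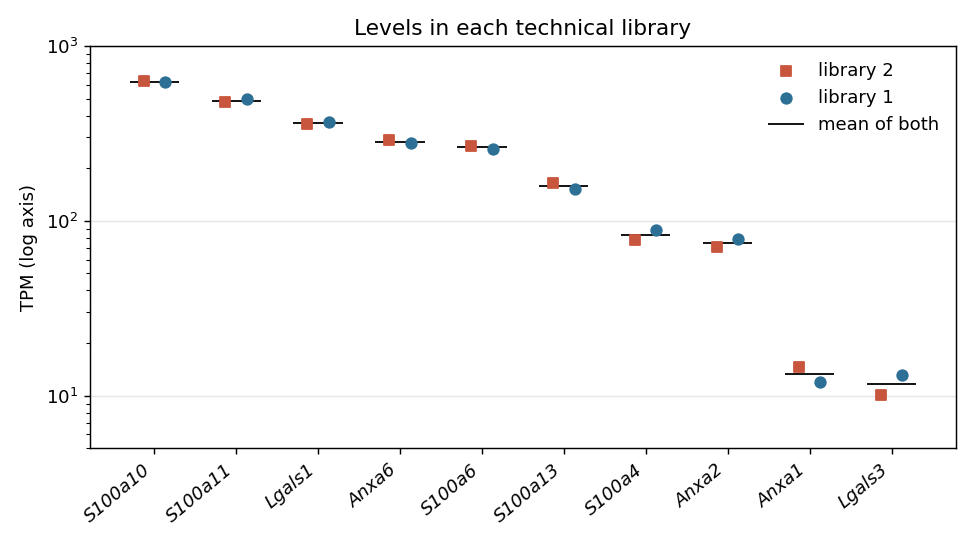
TPM (log axis) of the 10 genes in library 2 (squares) and library 1 (circles), with the mean of both as a line. S100a10 and S100a11 are the highest, Anxa1 and Lgals3 the lowest, at 10.1 to 14.6 TPM.

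Ordered by mean level, the genes ran S100a10, S100a11, Lgals1, Anxa6, S100a6, S100a13, S100a4, Anxa2, Anxa1 and Lgals3. Neighbours were called apart where the libraries of the higher gene both lay above those of the lower. On that rule S100a4 could not be told from Anxa2 (ratio of means 1.10), nor Anxa1 from Lgals3 (1.14), and the other 7 neighbouring pairs were apart, Anxa6 and S100a6 by the smallest margin (1.08). Part of this order rests on the length correction. The deposited effective lengths of S100a11 and S100a13, which have a single transcript each, are 49 bases under the transcript length, while the labels give a size range of 100 to 300. With effective lengths for fragments of 200 bases, an alternative that was added once the values had been seen, S100a6 stood at 1.29 times the level of Anxa6, against 0.927 with the deposited lengths. S100a4 was then apart from Anxa2, at 0.379 and 0.445 times the level of Anxa6 in library 2 and library 1, against 0.261 and 0.301 for Anxa2. The short S100 genes gained most, S100a4 by 1.41 times and S100a11 by 1.39 times.

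The levels of the listed complexes were uneven between their parts. Messages of S100a10 exceeded those of Anxa2, the other part of the complex that binds plasminogen at cell surfaces, 8.86-fold in library 2 and 7.84-fold in library 1. Messages of S100a11 exceeded those of Anxa1 32.9-fold in library 2 and 41.5-fold in library 1. These are ratios of TPM and say nothing of the proteins. Their size rests on the larger tables. The smaller gene tables hold counts from an earlier alignment, which are not scaled for transcript length. There S100a10 had 668 and 662 counts against 734 and 755 for Anxa2, in library 2 and library 1. S100a11 had 200 and 204 counts against 191 and 156 for Anxa1. The deposited effective lengths in library 2 were 636 bases for S100a10 against 1371 for Anxa2, and 462 for S100a11 against 1369 for Anxa1. By these lengths, near-equal counts still stand for a higher level of the S100 gene.

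Within their families, the listed genes held nearly all S100 message but shared the annexin and galectin totals with other genes. Of the summed TPM of the 16 S100 genes examined, S100a10 held 38.8% in library 2 and 38.3% in library 1, and S100a11 held 29.4% and 30.6%. The 11 other S100 genes summed to 8.08 TPM in library 2 and 6.27 TPM in library 1, against 1620 and 1610 TPM for the 5 listed ones. Only S100a1, S100a3 and S100g of the 11 were expressed, none of them at 5 TPM. S100a8 and S100a9, which form calprotectin in neutrophils and monocytes and also stand in the myeloid marker list, had 2 and 0 counts in library 2 and 1 and 3 counts in library 1. S100a7a, S100a14, S100a16 and S100b had 0 counts in both libraries. A count of 0 here allows up to 3 counts, which is 0.186 CPM (counts scaled to depth) in library 2 and 0.190 CPM in library 1.

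The S100 genes of chromosome 3 showed this contrast between neighbours. A run of 12 genes spans 184688 bases, in the map order S100a1, S100a13, S100a14, S100a16, S100a3, S100a2, S100a4, S100a5, S100a6, S100a7a, S100a8 and S100a9, and S100a11 and S100a10 lie 2824767 bases beyond it, 28793 bases apart. Of the 14 genes, 7 were expressed and the other 7 had at most 3 counts in either library. S100a5, which lies between S100a4 and S100a6 on the same strand, had 0 counts in library 2 and 1 count in library 1.

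**Figure D2:**
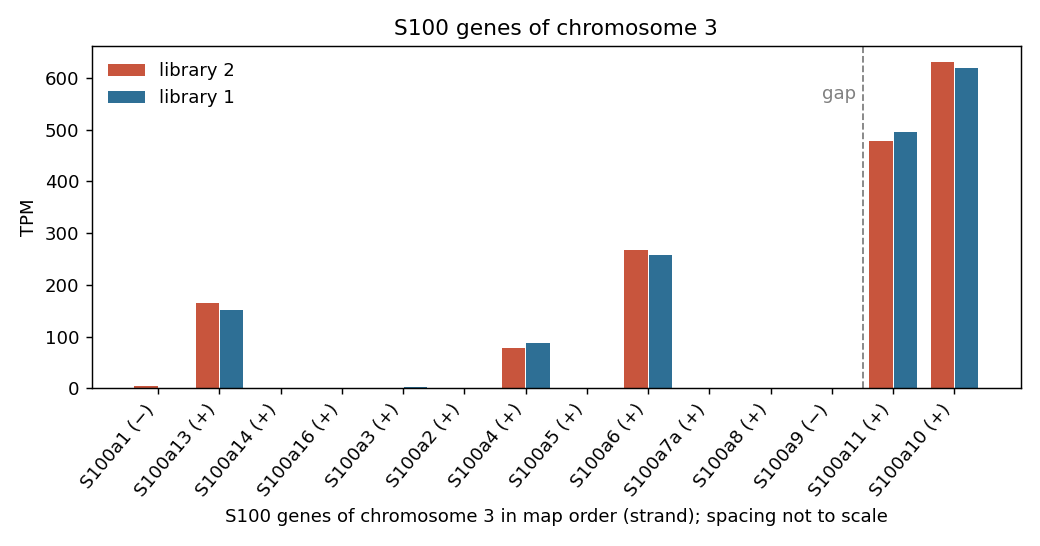
TPM of the 14 S100 genes of chromosome 3 in library 2 (left bars) and library 1 (right bars), in map order with the strand in brackets; spacing is not to scale, and the dashed line marks the break of 2824767 bases. Only S100a13, S100a4, S100a6, S100a11 and S100a10 rise clearly above 0, from 77.3 TPM for S100a4 in library 2 to 630.4 TPM for S100a10 in library 2.

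S100a13 and S100a1 are neighbours read in opposite directions from starts with 42 bases between them. S100a1 had 3.66 TPM from 30 counts in library 2 and 1.02 TPM from 8 counts in library 1, against 165 and 152 TPM for S100a13. The ratio of S100a13 to S100a1 was 45 in library 2 and 149 in library 1, the S100a1 level resting on few counts. The stretch printed here holds the starts of both genes; where the difference in level arises was not tested. It is the RefSeq promoter of S100a13 (GRCm38.p6, the assembly of mm10, chr3:90514185-90514484, plus strand, 5′ to 3′), and capitals mark the 42 bases between the GENCODE starts of S100a1 and S100a13. A RefSeq promoter was at hand for 7 of the 10 genes.
S100a13 promoter: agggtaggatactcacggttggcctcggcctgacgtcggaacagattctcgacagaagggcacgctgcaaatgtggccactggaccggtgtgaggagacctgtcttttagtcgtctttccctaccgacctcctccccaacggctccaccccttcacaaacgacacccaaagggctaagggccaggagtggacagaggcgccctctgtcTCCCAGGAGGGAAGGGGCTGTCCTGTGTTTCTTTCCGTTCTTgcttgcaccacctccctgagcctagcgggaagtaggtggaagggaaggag

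Of the 12 annexin genes examined, Anxa6 held 48.6% of the summed TPM in library 2 and 48.2% in library 1. Anxa5, known for binding phosphatidylserine on dying cells, came next at 110.9 TPM in library 2 and 108 TPM in library 1, so that Anxa6 stood 2.60 and 2.57 times above it. Anxa11 had 44.4 and 44.9 TPM, Anxa7 44.7 and 41.2 TPM, and Anxa4 18.2 and 13.8 TPM in library 2 and library 1. These 4 were the other annexins that passed 1 TPM. Anxa5, Anxa7 and Anxa11 lay above Anxa1 in both libraries, while the libraries of Anxa4 and Anxa1 overlapped. Anxa8, Anxa10 and Anxa13 had 0 counts in both libraries, and 14.6% of the Anxa11 windows described below were shared with other genes.

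Of the 8 galectin genes examined, Lgals1 held 52.9% of the summed TPM in library 2 and 54.6% in library 1, and Lgals9 held 31.8% and 30.4%. Lgals9, the gene of galectin-9, a reported ligand of the receptor encoded by Havcr2, had 215 TPM in library 2 and 204 TPM in library 1. Lgals8 had 71.0 and 65.2 TPM, and Lgals4 20.8 and 19.6 TPM, so that both exceeded the listed Lgals3 as well. Lgals7 was close to the threshold at 1.16 TPM in library 2 and 2.48 TPM in library 1, and Lgals2 had 0 counts. Lgals3bp, the gene of a secreted protein that galectin-3 binds, had 69.7 and 70.8 TPM in library 2 and library 1, well above Lgals3.

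Of 33 partner genes, 24 were expressed, 21 of them at 5 TPM. The ligands of S100A6 and S100A4 were all present: Sugt1 had 120.2 TPM in library 2 and 113 TPM in library 1, Cacybp 92.6 and 84.2 TPM, and Myh9 164 and 221 TPM. Ahnak, the giant scaffold that S100A10 and annexin A2 bind, had 33.6 TPM in library 2 and 37.5 TPM in library 1, while Plg, the plasminogen gene, had 0 counts and Plat and Plaur stayed under 1 TPM. None of the annexin A1 receptor genes was expressed: Fpr1, Fpr2 and Fpr3 together had 0.520 TPM in library 2 and 0.390 TPM in library 1. Fgf1 and Il1a, whose proteins S100A13 helps to export, had 0 estimated counts in both libraries. In the smaller gene tables Il1a had 3 counts in library 2 and 1 count in library 1, and Fgf1 had 0 in both.

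The receptors that can recognise extracellular S100 proteins were low. Ager, the gene of the receptor for advanced glycation end products, had 3.34 TPM in library 2 and 3.41 TPM in library 1. Tlr4 had 1.57 TPM from 65 counts in library 2 and 0.50 TPM from 21 counts in library 1, and so did not pass in both libraries.

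For galectins, genes of glycoproteins known to bind them on human or mouse T cells were present. Ptprc, the CD45 gene, had 1055 TPM in library 2 and 1059 TPM in library 1. Spn, the CD43 gene, had 76.9 and 78.1 TPM, Cd7 67.0 and 63.7 TPM, Itgb1 57.8 and 65.3 TPM, Cd44 57.6 TPM in each, Lag3 14.1 and 16.1 TPM, and Havcr2 2.10 and 1.84 TPM in library 2 and library 1. All 7 were thus expressed, Havcr2 the lowest and Ptprc the highest. Of the enzymes that build galectin ligands, Mgat1, which starts the branching of N-glycans, had 52.7 and 58.9 TPM, and Mgat5, which adds a branch that favours galectin binding, had 10.6 and 12.9 TPM. St6gal1, whose sialic acid caps block galectin-1 binding, had 52.1 TPM in library 2 and 52.2 TPM in library 1. Of the ESCRT genes whose products are reported to bind galectin-3, Tsg101 had 75.7 TPM in library 2 and 77.8 TPM in library 1, and Pdcd6ip had 27.4 and 39.0 TPM.

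Pdcd6, an EF-hand gene whose product binds annexins A7 and A11, had 128 TPM in library 2 and 127 TPM in library 1.

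The transcript tables showed which annotated form each level rests on. Of the 36 transcripts, 28 had a count in either library, and 9 of 10 genes had the same leading transcript in both libraries, by TPM and by estimated count alike. S100a11 and S100a13 have a single annotated transcript. S100a10-201 held 99.8% of the gene's TPM in library 2 and 99.6% in library 1, S100a4-201 99.1% and 100%, Anxa2-201 93.8% and 91.9%, and Lgals3-203 92.1% and 87.0%. The remaining 4 genes were divided.

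Lgals1 was divided between a protein-coding form and a form with an early stop codon. Lgals1-202, which the annotation marks for nonsense-mediated decay, held 61.2% of Lgals1 TPM in library 2 and 65.5% in library 1, and Lgals1-201, the protein-coding form, held 38.8% and 34.5%. By estimated count the share of Lgals1-202 was smaller, 54.9% in library 2 and 59.4% in library 1, since at 628 bases it is shorter than Lgals1-201 at 800 bases. The forms differ by an exon, by the end and, by 1 base, by the start. Lgals1-202 has a further exon 3 of 103 bases (chr15:78928565-78928667, plus strand), in which a stop codon follows 16 coding bases, and its last exon is annotated with 194 bases against 468, so that it ends 274 bases before Lgals1-201. Of the 50-base windows of Lgals1-202, 26.3% do not occur in Lgals1-201, and of those of Lgals1-201 43.1% do not occur in Lgals1-202. The share therefore rests on reads over the exon and over the missing end together, and the tables do not separate them. Counting protein-coding transcripts alone, Lgals1 stood at 132 TPM in place of 362 TPM, which puts it below S100a13 in the order. The joins below show the difference as spliced, in the direction of the gene. Each run starts with the last 21 bases of the shared exon, and capitals mark the stop codon.
Lgals1-202: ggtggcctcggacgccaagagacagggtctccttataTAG
Lgals1-201: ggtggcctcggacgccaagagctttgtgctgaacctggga

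Anxa6 was divided between coding forms that differ by a short cassette exon. Anxa6-202 held 54.3% of Anxa6 TPM in library 2 and 55.7% in library 1, Anxa6-201 held 39.9% and 37.2%, and Anxa6-203, a processed transcript, held 5.79% and 7.16%. By estimated count the shares of Anxa6-202 were close to these, 55.0% and 56.5%, and the forms have nearly the same length, 2489 and 2471 bases. Anxa6-202 has 26 exons and Anxa6-201 has 25, and the difference is exon 21, of 18 bases or 6 codons (chr11:54987051-54987068, minus strand). Windows over this exon make up 2.70% of Anxa6-202, and windows over the join that skips it 1.90% of Anxa6-201, so few of the reads behind each share tell the forms apart. Both forms had over 100 TPM in each library, 156 and 155 TPM for Anxa6-202 and 115 and 104 TPM for Anxa6-201 in library 2 and library 1. The inclusion and the skipping join are printed in the direction of the gene with 21 bases on either side, and capitals mark the cassette exon.
Anxa6-202: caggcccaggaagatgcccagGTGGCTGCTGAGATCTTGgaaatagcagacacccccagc
Anxa6-201: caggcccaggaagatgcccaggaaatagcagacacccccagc

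S100a6 and Anxa1 were divided as well. S100a6-203, of 464 bases, held 68.0% of S100a6 TPM in library 2 and 63.3% in library 1, and S100a6-201, of 731 bases, held 30.5% and 34.5%; both are annotated as protein coding. By estimated count they were closer to even, S100a6-203 with 57.1% in library 2 and 52.0% in library 1. Anxa1 was the gene whose leader differed between the libraries. Anxa1-201 held 45.1% of Anxa1 TPM in library 2 and 30.6% in library 1, Anxa1-208 held 31.4% and 44.0%, and the processed transcript Anxa1-203 held 23.4% and 19.7%. These Anxa1 shares rest on 139 and 73.9 estimated counts for Anxa1-201 and 93.9 and 103 for Anxa1-208 in library 2 and library 1.

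**Figure D3:**
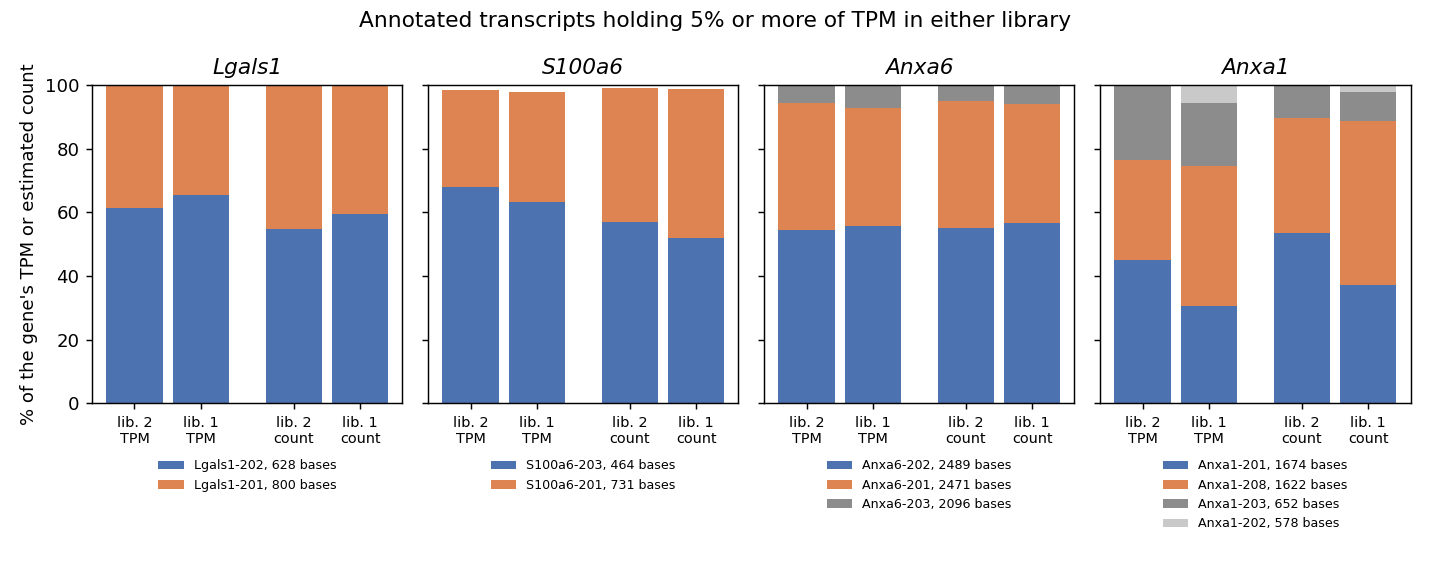
Share of a gene's TPM (left pair of bars) and of its estimated count (right pair) given to each annotated transcript with 5% or more of TPM in either library, for library 2 and library 1. Lgals1-202 and S100a6-203, the shorter forms, lose share when counts are used, Anxa6 does not, and Anxa1 changes its leading form between the libraries.

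Reads that could belong to another gene touched a pair of the listed genes. Of the 50-base transcript windows of S100a11, 41.1% also occur in the pseudogenes Gm12854, Gm7665 or Gm29240. The tables gave Gm12854 123.9 counts in library 2 and 78.0 counts in library 1, next to 2882 and 2850 for S100a11, and the split between them is uncertain. Of the windows of S100a4, 47.4% occur in Gm42674, an annotated gene that overlaps it on the same strand and had 0 counts in both libraries. The other 8 genes shared no window.

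The smaller gene tables set S100a11 and S100a10 lower against the other genes than the larger tables did. Over 10030 expressed genes the estimated count was a median of 2.42 times the smaller-table count. For S100a11 it was 14.2 times, above 94.3% of those genes, with only 200 counts in library 2 and 204 in library 1 in the smaller tables. For S100a10 it was 7.61 times, from 668 and 662 counts, although S100a10 shared no window with another gene. The other S100 genes lay near the median, S100a6 at 3.16 times, S100a13 at 2.26 times and S100a4 at 1.95 times. Lgals3 at 1.28 times and Anxa1 at 1.32 times stood at the other end, above 5.28% and 6.92% of genes. How reads that map to several places were treated in the smaller tables is not given in the sources used here, and its part in these ratios was not tested.

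**Figure D4:**
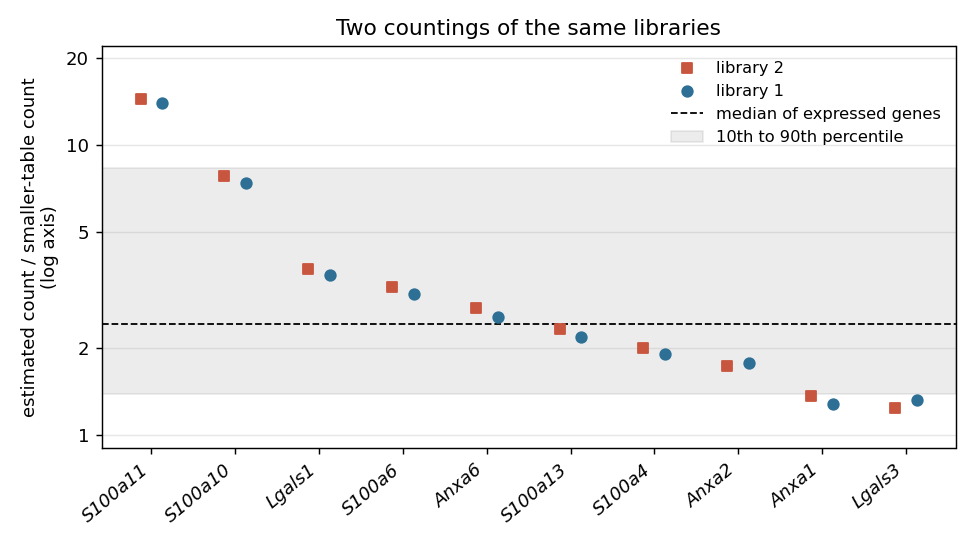
Estimated count of the larger table divided by the count of the smaller table (log axis) for the 10 genes in library 2 (squares) and library 1 (circles); the dashed line is the median over 10030 expressed genes and the band spans their 10th to 90th percentile, 1.39 to 8.33. S100a11 lies above the band and Anxa1 and Lgals3 below it.

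Library 2 was set against library 1 by an exact binomial test, two-sided, of each gene's rounded counts, which speaks of these libraries and not of conditions. Over all 17458 genes whose counts summed to at least 10, 25.1% were called at a Benjamini-Hochberg adjusted p below 0.05, and of the listed genes 3 of 10 were called, all higher in library 2. Among the 9741 genes whose counts summed to at least 200, as those of all 10 do, 31.8% were called, so the members' share is near the background. Variation between the libraries beyond counting error was a coefficient of variation of 13% by edgeR's common dispersion, so these p-values are too small. With a difference over 1.5-fold required as well, 8.79% of all genes and none of the 10 were called, and in the smaller gene tables, by the same rule as at first, 10.5% of genes and none of the 10 were called. In the smaller tables none of the 10 had an unadjusted p below 0.05 in the exact binomial test, and the smallest adjusted p among them was 0.245.

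The called differences were small. Anxa6 was higher in library 2 by a log2 ratio of 0.09 (95% exact counting interval 0.04 to 0.13, adjusted p = 0.000897, exact binomial test), on the highest count of the set. S100a13 was higher by 0.16 (0.05 to 0.27, adjusted p = 0.0239, exact binomial test) and Anxa1 by 0.35 (0.08 to 0.63, adjusted p = 0.0386, exact binomial test), the largest ratio of the 10. Anxa1 was no longer called where genes with a summed count down to 1 were tested as well. Lgals3 had the lowest ratio at -0.25 (-0.59 to 0.08), S100a4 had -0.16 (-0.35 to 0.03) and Anxa2 -0.10 (-0.21 to 0.01), none of them called. The median absolute log2 ratio was 0.09 for the 10 genes, 0.22 for all genes tested and 0.13 for those whose counts summed to at least 200. Markers of other cells that differed by the same test were Csf1r at -1.90, Ms4a1 at -3.15 and Cd8b1 at 0.45, from 11.8, 3 and 268 counts in library 2 against 44.2, 30 and 192 in library 1; the part of such cells in the ratios above was not tested.

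**Figure D5:**
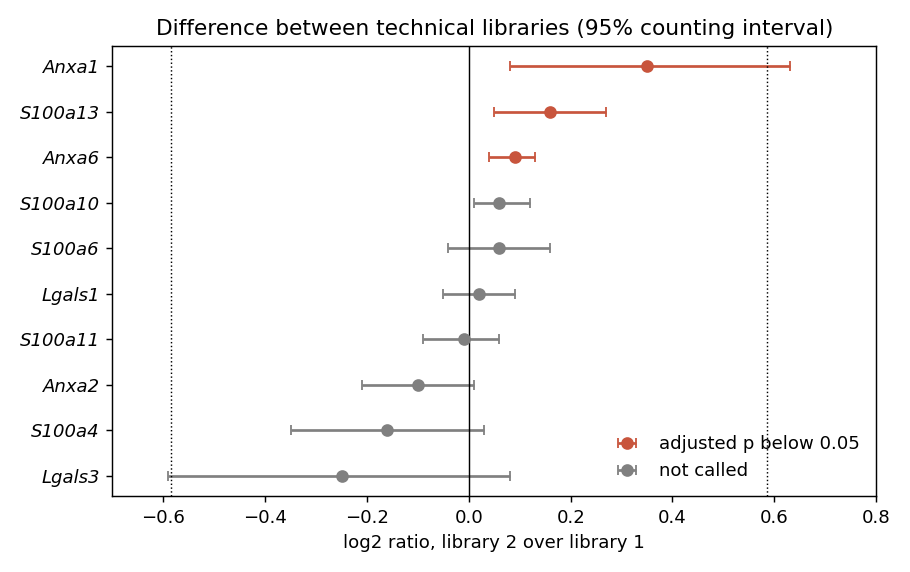
Log2 ratio of library 2 over library 1 for the 10 genes, with the 95% exact interval for counting error; coloured points passed an adjusted p of 0.05 and dotted lines mark 1.5-fold. All points lie between -0.25 and 0.35, and the called genes are Anxa1, S100a13 and Anxa6.

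Several related genes outside the 10 were also called higher in library 2. S100a1 had the largest ratio, 1.81 (0.72 to 3.21, adjusted p = 0.00386, exact binomial test), from 30 and 8 counts. Lgalsl, a galectin-related gene, stood at 0.81 (0.48 to 1.15), Anxa4 at 0.30 (0.09 to 0.52), Lgals8 at 0.26 (0.16 to 0.36) and Lgals9 at 0.11 (0.05 to 0.18). These were 5 of the 15 other family genes with enough counts for the test, and none of the 15 was called lower, next to 25.1% called over all genes tested, 2062 higher and 2327 lower in library 2. Of 27 partner genes tested 11 were called, 5 higher and 6 lower in library 2, with Myh9 at -0.27 (-0.31 to -0.24) and Ahnak at -0.28 (-0.33 to -0.23) among the lower ones; all 11 are likewise to be read against the 25.1% over all genes, and against 31.8% where counts summed to at least 200.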

How the data were processed

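Gene and transcript tables on mm10 with GENCODE M21, and smaller gene tables with GENCODE M4, were read for both technical libraries; the sources used here give no aligner or tool version. Per the file headers, the deposited larger tables hold expected counts (estimated counts per gene, not scaled), TPM (a maximum likelihood value and a posterior mean), the bounds of the authors' TPM credibility interval (a signal that is never negative), FPKM, and for transcripts the percent of a gene's TPM. The deposited smaller tables hold whole-number counts per gene, 3680387 in library 2 and 3746426 in library 1; their counting tool and strand setting are likewise not given. FPKM and posterior means served as alternatives.

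Symbols, positions and transcript types came from GENCODE M21. Shared reads were measured as the share of a gene's 50-base transcript windows found in another gene's transcripts. Both were compared as transcript sequences in the sense direction, whatever the strand of the genes. A gene counted as expressed where each library gave at least 1 TPM. Expected counts were rounded, and those summing to at least 10 were tested with an exact binomial test on library sizes scaled by TMM (edgeR 4.0.16, R 4.3.3), with Benjamini-Hochberg adjustment over all 17458 genes; DESeq2 1.42.0 size factors were an alternative. Log2 ratios used a prior count of 0.5. With 1 library a side no dispersion per gene can be fitted. Intervals are exact, at 95%.

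The 10 genes and the family, partner and marker lists were chosen with earlier results of these data known. The text names the 10 genes, expressed family genes with S100a8 and S100a9, partner genes that were expressed or had 0 counts, and marker genes; S100a5, S100a2, the other family genes at 0 counts, Plat, Plaur, Tlr4, the Fpr genes and the overlapping Gm genes were added after their values were seen. S100a7l2 and Lgals6 were not matched by symbol and were not analysed here. Some listed genes are not reported here.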

Additional observations from a re-analysis of the deposited data

How the results depend on the processing

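All 10 genes were expressed under the posterior mean TPM, FPKM, a threshold of 5 TPM, protein-coding transcripts alone and without each replicate (10 to 10). Of the 28 other family genes found, 13 were expressed, 8 at 5 TPM, 14 with the posterior mean TPM and 11 with FPKM. Without each replicate the range was 13 to 13 for these family genes and 24 to 25 for the partner genes. The mean posterior TPM was lower by more than the SD for 8 of 10 genes, with a median ratio to the TPM of 0.897 in library 2 and 0.891 in library 1, and for 8 of 10 in each library the TPM lay above the authors' credibility interval. Of the 10 genes, 3 were called between the libraries, 3 with total count scaling, 4 with DESeq2 size factors (S100a10 added), 2 with a summed count of 1 or more (Anxa1 lost), 3 with 50 or more, 0 in the smaller gene tables and 0 with 1.5-fold required as well; the smaller tables hold fewer counts and 1.5-fold adds a condition, and the cause was otherwise not tested. The log2 ratio of Lgals1 turned round in the smaller tables, to -0.0031, and as a ratio of TPM, to -0.03, and that of S100a11 turned round under DESeq2 size factors, to 0.0082; all were within counting error. No paired analysis was possible because both libraries belong to a single group. Depth limits the genes with a few counts, such as S100a1, and the transcript shares of Anxa1 and Lgals3.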
